A study of Schizosaccharomyces pombe with 6 samples.

Results

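A set of 8 fission yeast genes for ammonium uptake, for its assimilation into glutamate and glutamine, and for a nitrogen-responsive transcription factor was followed in RNA-seq libraries of a strain without inositol pyrophosphatase activities and of the wild-type. The genes were taken by their known roles and systematic IDs, with earlier results of these data known. They are the ammonium transporter genes *amt1* (SPCPB1C11.01), *amt2* (SPAC664.14), and *amt3* (SPAC2E1P3.02c), the glutamate dehydrogenase genes *gdh1* (SPCC622.12c) and *gdh2* (SPCC132.04c), the glutamate synthase gene *glt1* (SPAPB1E7.07), the glutamine synthetase gene *gln1* (SPAC23H4.06), and *gaf1* (SPCC1902.01). They make up 8 of the 6988 features of the count table, and all 8 were among the 5947 genes kept by the filter on low counts. Poly(A)+ RNA came from 3 biological replicate cultures of a mutant and 3 of the wild-type, all haploid cells in log phase at 30°C and labelled h-. The mutant carries *asp1-H397A::natMX*, *aps1*∆*::kanMX*, *siw14*∆*::hygMX*, and *spx1*∆*::ura4MX*, and is called *asp1-H397A aps1*∆ *siw14*∆ *spx1*∆ or simply the mutant. The labels give the mutant as h-, whereas the study's strain list gives its strain with these 4 alleles as h+. The mating type of the mutant is therefore uncertain, and its part in the values was not tested. The same list also gives its strains mutant alleles of *leu1*, *ura4*, *his3*, and *ade6*, which the labels do not name, and it has no line for the wild-type. The part of these alleles was not tested. The mutant lacks the pyrophosphatase activity of Asp1 through a missense change and lacks Aps1, Siw14, and Spx1, a sensor of inositol pyrophosphates, through deletions. The comparison shows which transcripts differ between this mutant and the wild-type. No library came from a strain with *spx1* deleted alone, or from one with the pyrophosphatase changes and an intact *spx1*. The 4 alleles and their markers are carried together in 1 strain, so their separate parts cannot be told apart, and the nitrogen source was not varied. All cultures grew in ePMGT, an enriched synthetic medium (PMG media have glutamate as the nitrogen source).

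The deleted genes had fewer counts in every mutant library than in any wild-type library. In the mutant *aps1* had 307 to 330 counts, *siw14* 70 to 107, and *spx1* (listed as *pqr1* in the annotation) 1915 to 2369, against 3083 to 3657, 1925 to 2666, and 4524 to 6452 in the wild-type libraries. *spx1* kept part of its reads, and which part of its gene model was deleted is not given in the labels or methods. *asp1*, which carries the missense change, had 927 to 1034 counts in the mutant libraries and 1199 to 1417 in the wild-type libraries. The marker gene *ura4* had 8309 to 9631 counts in the mutant libraries and 0 in every wild-type library. Total counts were 20305111 to 22690741 per mutant library and 16593476 to 21436751 per wild-type library. Among the wild-type libraries, replicate 3 stood apart from replicate 1 by expression level. The median log2 difference of replicate 3 over replicate 1 was −0.494 in the 1683 lowest-expressed and 0.301 in the 1683 highest-expressed of 5049 genes whose normalized counts averaged 100 or more. Calls of the members that change without wild-type replicate 3 are given with and without it.

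Ammonium crosses the plasma membrane through transporters of the Amt family. Inside the cell, the NADP-dependent glutamate dehydrogenase Gdh1 joins ammonium to 2-oxoglutarate to make glutamate, whereas the NAD-dependent enzyme Gdh2 works in the direction of glutamate breakdown and releases ammonium. Glutamine synthetase, Gln1, adds ammonium to glutamate, and glutamate synthase, Glt1, passes the amide nitrogen of glutamine to 2-oxoglutarate. Gaf1 is a zinc-finger transcription factor of the GATA type that answers to TORC1 signaling and to nitrogen supply.

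GATA-type factors bind sites around a GATA core. The 250 bases upstream of each annotated transcript start were searched for GATAA and, for the other strand, TTATC, and all 8 members were found in the annotation. *gdh1* and *amt3* each had 4 matches, *amt1* and *gln1* 3, *amt2* and *glt1* 1, and *gdh2* and *gaf1* none. Of the same windows of 5112 protein-coding genes, 54.2% held at least 1 match and 4.44% held at least 3. The windows of *gdh1* and *amt2*, whose transcripts differed between the strains, and of *amt1*, a transporter gene of like abundance with no called difference, are shown from RefSeq's ASM294v3 genome, located by systematic ID in RefSeq's annotation of that build. They run from 5′ to 3′ on the strand of the gene, and capitals mark GATAA or TTATC. A match is a description of the letters, and binding was not measured.
*gdh1*, chrIII:1421204-1421453, minus strand: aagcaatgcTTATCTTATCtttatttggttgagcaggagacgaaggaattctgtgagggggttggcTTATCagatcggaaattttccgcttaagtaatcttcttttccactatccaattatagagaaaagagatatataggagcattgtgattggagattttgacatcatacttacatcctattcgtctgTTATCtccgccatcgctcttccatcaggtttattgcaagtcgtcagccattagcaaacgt
*amt2*, chrI:1730819-1731068, plus strand: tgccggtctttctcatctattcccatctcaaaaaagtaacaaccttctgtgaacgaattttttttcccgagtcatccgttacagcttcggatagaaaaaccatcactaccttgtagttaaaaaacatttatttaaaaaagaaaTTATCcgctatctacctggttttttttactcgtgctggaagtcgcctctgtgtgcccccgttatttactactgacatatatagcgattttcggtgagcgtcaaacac
*amt1*, chrIII:2068729-2068978, plus strand: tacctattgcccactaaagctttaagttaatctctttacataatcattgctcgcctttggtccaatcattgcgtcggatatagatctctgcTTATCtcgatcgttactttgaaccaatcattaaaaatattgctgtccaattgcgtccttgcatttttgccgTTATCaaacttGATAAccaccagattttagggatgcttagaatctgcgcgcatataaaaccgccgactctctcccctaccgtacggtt
The *gdh1* window held all 4 matches as TTATC, with a pair of them side by side. The *amt2* window held 1 TTATC, and the *amt1* window held 2 TTATC and 1 GATAA.

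*gdh1* fell and *amt2* rose in the mutant, and no call was made for the other 6 transcripts. A transcript was called when its adjusted *P* value by edgeR's quasi-likelihood test was at most 0.05. Thus 2 of the 8 members were called, 1 higher and 1 lower, beside 12.4% of all 5947 genes tested (317 higher and 418 lower). With so few members this count is no result about the group, and what follows concerns the named genes. The study's methods add 2 further cutoffs, a 2-fold change and a mean of 100 normalized counts in the strain with more of the transcript. None of the 8 passed all of these cutoffs, whether by edgeR, by DESeq2, or by limma-voom. By edgeR, 22 genes passed those cutoffs upward (0.37%) and 102 passed downward (1.72%). At an unadjusted *P* value under 0.05, 4 of the 8 members differed, beside 27.4% of all genes. The mutant libraries all lay above the wild-type libraries for 5 members, beside 16.4% of all genes, and all below for 1 member, beside 17.3%. The median log2 fold change was 0.20 over the members, with a range of −0.84 to 0.53, and 0.00 over all genes. A normalized count below is a count scaled to a common library size. Because the RNA came from bulk cultures, fewer cells with a transcript and less of it per cell cannot be told apart.

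**Figure D1:**
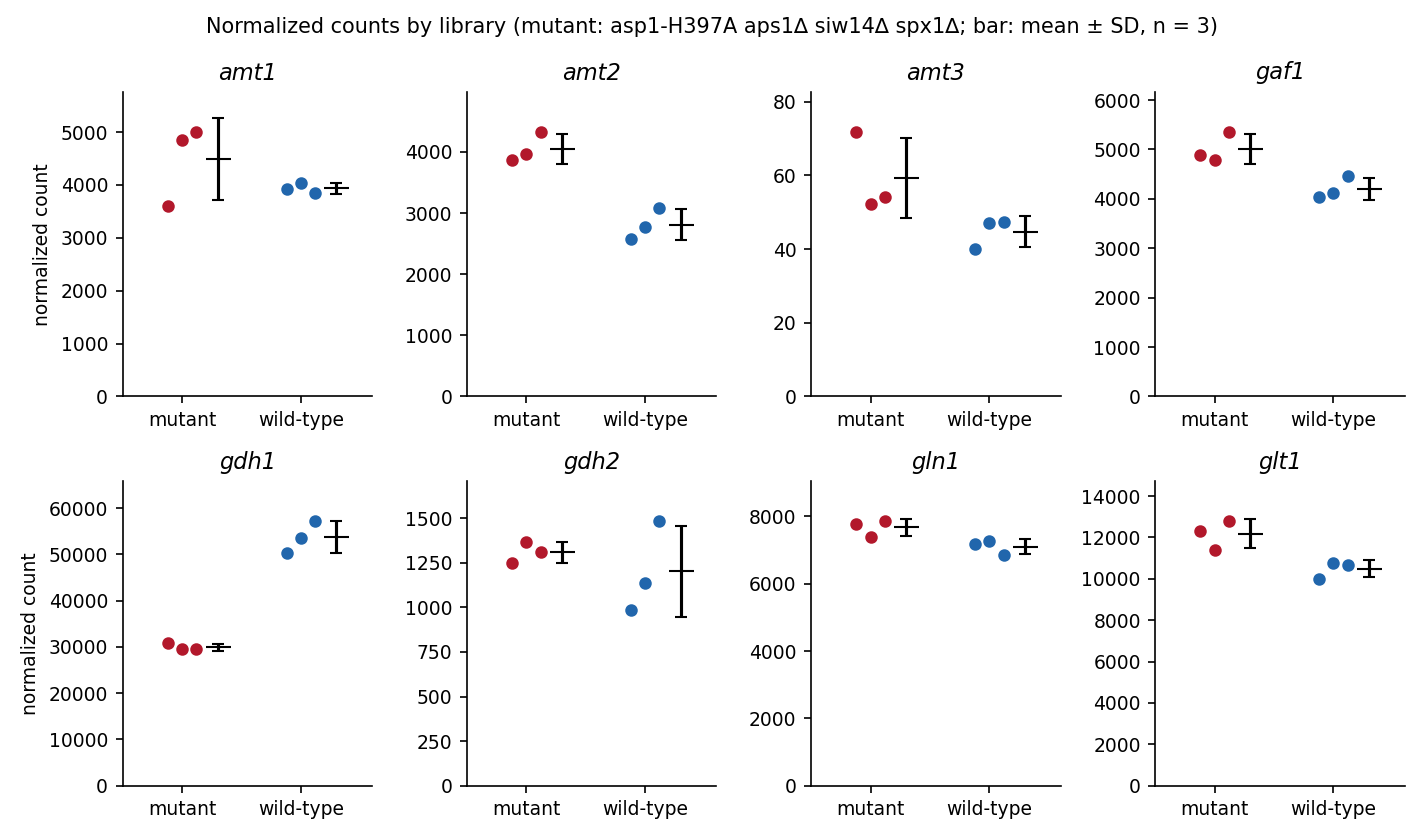
Normalized counts (vertical axes, each from 0) of the 8 transcripts in each library, with 3 mutant libraries left of 3 wild-type libraries in each panel and bars for the mean ± SD. The mutant points of *gdh1* lie at 29443 to 30795, below all wild-type points, and those of *amt2* at 3859 to 4330, above them.

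Among the transporters, *amt2* had 3859, 3971, and 4330 normalized counts in the mutant libraries, against 2581, 2774, and 3080 in the wild-type libraries. Every mutant library was above every wild-type library. The means were 4053 ± 246 in the mutant and 2812 ± 252 in wild-type (SD, n = 3 each). *amt2* therefore rose 1.44-fold, a log2 fold change of 0.53 (SE 0.10, 95% interval 0.31 to 0.74, adjusted *P* = 0.00540 by edgeR), and was 230th of all genes by *P* value. The call held in all 15 alternatives, with a log2 fold change of 0.47 to 0.59.

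*amt1* had 3598, 4850, and 5006 normalized counts in the mutant libraries and 3920, 4037, and 3842 in the wild-type libraries. Mutant replicate 1 lay below all the wild-type libraries and the other mutant libraries lay above them, so that the strains overlapped. *amt1* thus had a log2 fold change of 0.19 (SE 0.12, 95% interval −0.08 to 0.46, adjusted *P* = 0.357 by edgeR). Without mutant replicate 1 the value was 0.33 (adjusted *P* = 0.108) and without mutant replicate 3 it was 0.10 (adjusted *P* = 0.774). Mutant libraries spread more widely than wild-type libraries for *amt1*, with a coefficient of variation of 17.2% in the mutant and 2.50% in wild-type.

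*amt3* was scarcely expressed, with 79, 51, and 58 counted reads in the mutant libraries and 35, 50, and 43 in the wild-type libraries. After scaling these were 71.8, 52.2, and 54.0 normalized counts in the mutant and 39.9, 46.9, and 47.4 in wild-type, without overlap. The log2 fold change of 0.41 had a wide interval (SE 0.22, 95% interval −0.07 to 0.89, adjusted *P* = 0.262 by edgeR), and no difference was called. Without mutant replicate 1 it was 0.24 (adjusted *P* = 0.650). The noncoding RNA SPNCRNA.859 lies on the other strand over 1702 of the 1755 exon bases of *amt3*. It had 95, 57, and 74 counts in the mutant libraries and 56, 81, and 69 in the wild-type libraries, and reads of *amt3* and of this RNA cannot be told apart where the counting did not use strand, a setting the sources used here do not give. The coding sequences of the 3 transporters were 60.3% identical between *amt1* and *amt2*, 58.1% between *amt1* and *amt3*, and 58.7% between *amt2* and *amt3*.

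For *gdh1*, the ammonium-fixing dehydrogenase gene, the mutant libraries had 30795, 29525, and 29443 normalized counts, against 50250, 53551, and 57213 in the wild-type libraries. The strains were far apart, with a gap between the highest mutant library and the lowest wild-type library wider than the spread within either strain. Means were 29921 ± 758 in the mutant and 53671 ± 3483 in wild-type (SD, n = 3 each). *gdh1* fell to 0.557 of the wild-type level (95% interval 0.483 to 0.644), a log2 fold change of −0.84 (SE 0.09, adjusted *P* = 0.000179 by edgeR), and was 63rd of all genes by *P* value. The interval includes a 2-fold fall, although the estimate, 1.79-fold, was short of it. The log2 fold change stayed between −0.89 and −0.80 in all 15 alternatives and was called in each of them. As a share of all counted reads, *gdh1* made up 0.149%, 0.142%, and 0.141% in the mutant libraries and 0.266%, 0.266%, and 0.261% in the wild-type libraries.

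*gdh2*, whose product breaks glutamate down, had 1249, 1368, and 1312 normalized counts in the mutant libraries and 988, 1137, and 1485 in the wild-type libraries. The strains overlapped, and wild-type replicate 3 was the highest of the 6 libraries. The log2 fold change was 0.12 (SE 0.14, 95% interval −0.20 to 0.44, adjusted *P* = 0.650 by edgeR). The wild-type libraries decided this value. It was −0.0028 without wild-type replicate 1, and without wild-type replicate 3 it was 0.30 with an adjusted *P* of 0.0171 by edgeR.

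The genes of the glutamine synthetase and glutamate synthase cycle were not called. *gln1* had 7782, 7375, and 7866 normalized counts in the mutant libraries and 7183, 7266, and 6855 in the wild-type libraries. The mutant values were all higher by a narrow margin, with a log2 fold change of 0.11 (SE 0.09, 95% interval −0.08 to 0.31, adjusted *P* = 0.466 by edgeR). *glt1* had 12328, 11407, and 12794 normalized counts in the mutant libraries and 10010, 10779, and 10660 in the wild-type libraries, again without overlap. Its log2 fold change was 0.22 (SE 0.09, 95% interval 0.01 to 0.42), with an unadjusted *P* of 0.0392 and an adjusted *P* of 0.158 by edgeR. Without wild-type replicate 3 the log2 fold change of *glt1* was also 0.22 and the adjusted *P* 0.0486.

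The transcription factor gene *gaf1* had 4891, 4785, and 5360 normalized counts in the mutant libraries, against 4044, 4120, and 4459 in the wild-type libraries. The strains did not overlap. It had a log2 fold change of 0.25 (SE 0.09, 95% interval 0.05 to 0.46), with an unadjusted *P* of 0.0195 and an adjusted *P* of 0.103 by edgeR. This value lay near the threshold. *gaf1* was called with library totals as the scaling (adjusted *P* = 0.0422 by edgeR), with cyclic loess scaling (adjusted *P* = 0.0296 by limma-voom), and without wild-type replicate 3 (adjusted *P* = 0.0106 by edgeR), and was not called in the other 12 alternatives. Without wild-type replicate 3, 4 of the 8 members (*amt2*, *gdh2*, *glt1*, and *gaf1*) were called higher, and the share of all genes called higher was then 14.3%, in place of 5.33% with all libraries.

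**Figure D2:**
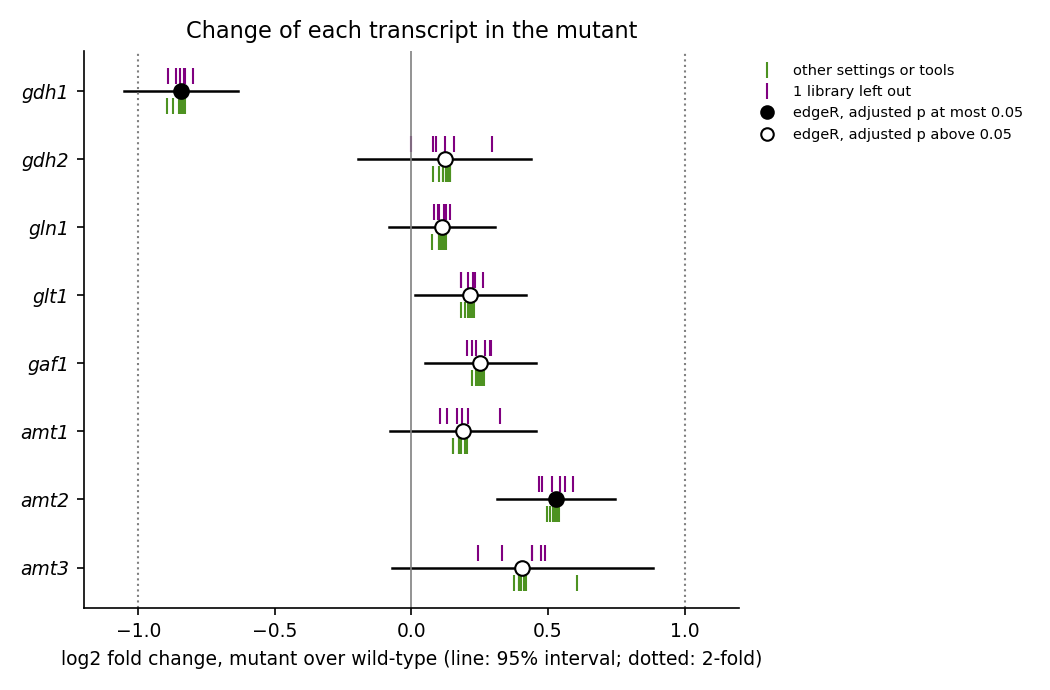
Log2 fold change of each transcript in the mutant over wild-type (horizontal axis), with the edgeR estimate as a circle (filled where the adjusted *P* is at most 0.05) and its 95% interval as a line; ticks above show fits with 1 library left out and ticks below show other settings or tools. Only *gdh1* at −0.84 and *amt2* at 0.53 are filled, and a tick of *gdh2* reaches −0.0028.

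Levels of different genes were compared as reads per kilobase of exon per 1000000 of the library size as scaled by edgeR's TMM. By this measure *gdh1* was the most abundant of the 8 transcripts in either strain, with a mean of 704 ± 17.8 in the mutant and 1262 ± 81.9 in wild-type (SD, n = 3 each). It ranked 235th by level in the mutant and 153rd in wild-type among the protein-coding genes tested. *gln1* followed with 188 ± 6.43 in the mutant and 174 ± 5.32 in wild-type. In the mutant the order then ran *amt2* (89.8 ± 5.45), *amt1* (80.1 ± 13.8), *glt1* (78.7 ± 4.56), *gaf1* (58.8 ± 3.59), *gdh2* (17.7 ± 0.805), and *amt3* (1.65 ± 0.302). In wild-type it ran *amt1* (70.3 ± 1.75), *glt1* (67.7 ± 2.67), *amt2* (62.3 ± 5.58), *gaf1* (49.3 ± 2.59), *gdh2* (16.3 ± 3.45), and *amt3* (1.24 ± 0.117). *amt2* was thus 3rd in the mutant and 5th in wild-type. Neighbours whose libraries overlapped were *amt2* with *amt1* and *amt1* with *glt1* in the mutant, and *amt1* with *glt1* and *glt1* with *amt2* in wild-type. All other neighbours in the order were separate in every library. When coding length replaced exon length, *amt1* was 3rd, *amt2* 4th, *gaf1* 5th, and *glt1* 6th in the mutant. In wild-type *amt2* was then 4th and *glt1* 5th. The libraries of *amt1* and *amt2* and those of *gaf1* and *glt1* overlapped in the mutant, and those of *amt2* and *glt1* and of *glt1* and *gaf1* in wild-type.

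**Figure D3:**
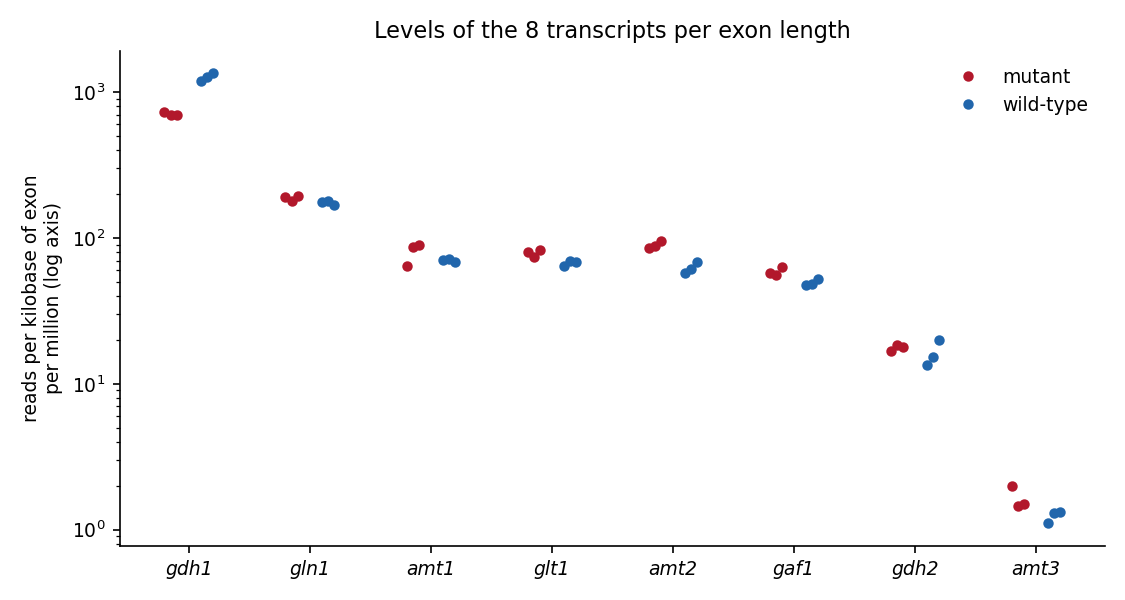
Level of each transcript in each library, in reads per kilobase of exon per 1000000 of the scaled library size (vertical log axis). Mutant points lie left of wild-type points for each gene. The levels run from 1.1 to 2.0 for *amt3* up to 692 to 1345 for *gdh1*, and *amt1*, *amt2*, and *glt1* lie close together.

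The make-up of the transporter family and the balance of the paired enzymes were described from the same levels, without a test. *amt2* contributed 56.3%, 50.0%, and 51.3% of the summed level of the 3 transporter transcripts in the mutant libraries and 44.6%, 45.6%, and 49.4% in the wild-type libraries. *amt1* contributed 42.3%, 49.2%, and 47.9% in the mutant and 54.6%, 53.5%, and 49.7% in wild-type. The larger share was that of *amt2* in the 3 mutant libraries and that of *amt1* in the 3 wild-type libraries. There was little between them in mutant replicate 2 and in wild-type replicate 3. Which of them is larger in the mutant depends on the length used, since by coding length the mean level was 128 for *amt2* and 146 for *amt1* in the mutant. *amt3* added 0.980 ± 0.290% in the mutant and 0.928 ± 0.0562% in wild-type. The summed level was 172 ± 18.0 reads per kilobase per 1000000 in the mutant and 134 ± 5.02 in wild-type (SD, n = 3 each), with all mutant libraries above all wild-type libraries.

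The ratio of the *gdh1* level to the *gdh2* level was 42.9, 37.6, and 39.0 in the mutant libraries and 88.5, 82.0, and 67.0 in the wild-type libraries. The strains did not overlap in this ratio, which also holds the spread of *gdh2* in wild-type. *gdh1* was 3.75 ± 0.133 times the level of *gln1* in the mutant and 7.27 ± 0.670 times in wild-type. It was 8.96 ± 0.534 times the level of *glt1* in the mutant and 18.6 ± 0.789 times in wild-type. By contrast, the ratio of *gln1* to *glt1* was 2.39 ± 0.0601 in the mutant and 2.57 ± 0.142 in wild-type (SD, n = 3 each), with overlap between the strains. All 8 transcripts together took 0.312 ± 0.00624% of the counted reads in the mutant and 0.411 ± 0.00987% in wild-type, a sum to which *gdh1* alone gave 0.144% in the mutant and 0.264% in wild-type.

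Other genes of nitrogen metabolism and its regulation were examined as 5 lists. Of 12 aminotransferase genes, whose products move amino groups between glutamate and other acids, 3 were called lower and none higher, where 418 of all 5947 genes were lower and 317 higher. The ornithine transaminase gene *car2* had 36609, 34868, and 38505 normalized counts in the mutant libraries and 55846, 67206, and 74715 in the wild-type libraries. It was lower in every mutant library, with a log2 fold change of −0.85 (SE 0.12, adjusted *P* = 0.000803 by edgeR). A pair of genes annotated as aromatic aminotransferases also fell, SPCC569.07 with a log2 fold change of −1.42 (SE 0.16, adjusted *P* = 0.000225) and SPBC1773.13 with −0.78 (SE 0.13, adjusted *P* = 0.00233). For a further gene with this annotation, SPAC56E4.03, the value was −0.29 (adjusted *P* = 0.139). The list's median log2 fold change was −0.13. At an unadjusted *P* under 0.05, 4 of the 12 were lower and 1 was higher, beside 27.4% of all genes in either direction. DESeq2 and limma-voom also called 3 lower and 0 higher, where 6.46% and 6.89% of all genes were lower. Without wild-type replicate 1, 5 were called lower, beside 11.6% of all genes, and without wild-type replicate 3, 1 was called higher, beside 14.3%.

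Enzymes that take the amide nitrogen of glutamine were represented by 11 genes, of which 2 were called higher and none lower. *ura1*, whose bifunctional product makes carbamoyl phosphate and carbamoyl aspartate for pyrimidines, had 23022, 24511, and 27305 normalized counts in the mutant libraries and 16840, 18139, and 20121 in the wild-type libraries. Its log2 fold change was 0.44 (SE 0.11, adjusted *P* = 0.0196 by edgeR). *cts1*, the CTP synthase gene, had a log2 fold change of 0.45 (SE 0.11, adjusted *P* = 0.0206). *gua2*, for GMP synthase, had 0.37 (adjusted *P* = 0.0561), and *ade4*, for the amidotransferase that opens purine synthesis, had 0.32 (adjusted *P* = 0.0815). The median of the list was 0.12, with 5 genes higher and 0 lower at an unadjusted *P* under 0.05, beside 27.4% of all genes in either direction. DESeq2 called 3 higher and limma-voom 2, beside 6.86% and 5.68% of all genes, and neither called any lower. The count of calls was 0 without wild-type replicate 2, without mutant replicate 2, or without mutant replicate 3, and 5 without wild-type replicate 3. The share of all genes called higher moved the same way in these fits, to 1.86%, 2.03%, 1.70%, and 14.3%. The *ura4* marker, a gene of pyrimidine synthesis, was present in the mutant alone, and its part in these values was not tested.

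Of 7 genes that supply or use 2-oxoglutarate, the carbon skeleton on which Gdh1 and Glt1 act, 2 were called lower. These were *cit1*, for citrate synthase, with a log2 fold change of −0.44 (SE 0.11, adjusted *P* = 0.0264 by edgeR), and *idp1*, for isocitrate dehydrogenase, with −0.33 (SE 0.10, adjusted *P* = 0.0494). *aco1*, for aconitase, had −0.24 (adjusted *P* = 0.210) and *idh2*, for a subunit of the NAD-dependent isocitrate dehydrogenase, had −0.23 (adjusted *P* = 0.278). The median was −0.23. At an unadjusted *P* under 0.05, 2 were lower and 0 were higher, beside 27.4% of all genes in either direction. DESeq2 and limma-voom each called 2 lower and 0 higher, where 6.46% and 6.89% of all genes were lower. The count of lower genes was 1 without mutant replicate 1 and 0 without wild-type replicate 2, mutant replicate 2, or mutant replicate 3. The share of all genes called lower was 4.37%, 3.89%, 3.64%, and 3.42% in these fits.

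Among 7 enzymes that release ammonium, the asparaginase gene SPBPB21E7.09 was called lower, with 744, 512, and 513 normalized counts in the mutant libraries and 836, 977.3, and 1083 in the wild-type libraries. This was a log2 fold change of −0.71 (SE 0.17, adjusted *P* = 0.0205 by edgeR). Another asparaginase gene, SPAC977.12, had 0.29 (adjusted *P* = 0.168), the D-amino acid oxidase gene *dao1* had 0.24 (adjusted *P* = 0.240), and *hem3*, whose product joins porphobilinogen units and releases ammonium, had 0.15 (adjusted *P* = 0.397). The list's median was 0.07. The call of SPBPB21E7.09 was absent without wild-type replicate 2, mutant replicate 2, or mutant replicate 3, where 3.89%, 3.64%, and 3.42% of all genes were called lower. Without wild-type replicate 3 another gene of the list was called higher, beside 14.3% of all genes.

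A list of 25 regulators held TORC1 and TORC2 subunits and their upstream GTPases, kinases and other proteins of the nitrogen response, and GATA-type factors. The last were listed for their type, *fep1* (annotated as iron-sensing) and *ams2* among them, and not for a role in nitrogen. Of the 25, 0 were called in either direction by edgeR, by DESeq2, or by limma-voom, beside 12.4% of all genes by edgeR. At an unadjusted *P* under 0.05, 2 were higher and 3 were lower by edgeR, beside 27.4% of all genes in either direction. The smallest *P* values belonged to *ssp2*, for the AMPK catalytic subunit (log2 fold change −0.31, adjusted *P* = 0.0587), *cek1*, for a protein kinase (0.31, adjusted *P* = 0.0842), *rhb1*, for the Rheb GTPase that activates TORC1 (−0.24, adjusted *P* = 0.107), and *isp7*, for a 2-oxoglutarate oxygenase-family protein (−0.31, adjusted *P* = 0.152). The median was −0.01. Without wild-type replicate 3, 5 were called higher and 3 lower, beside 14.3% of all genes higher and 15.2% lower in that fit. Without wild-type replicate 1, 2 were called lower, beside 11.6% of all genes. The 25 log2 fold changes ranged from −0.31 to 0.31.

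**Figure D4:**
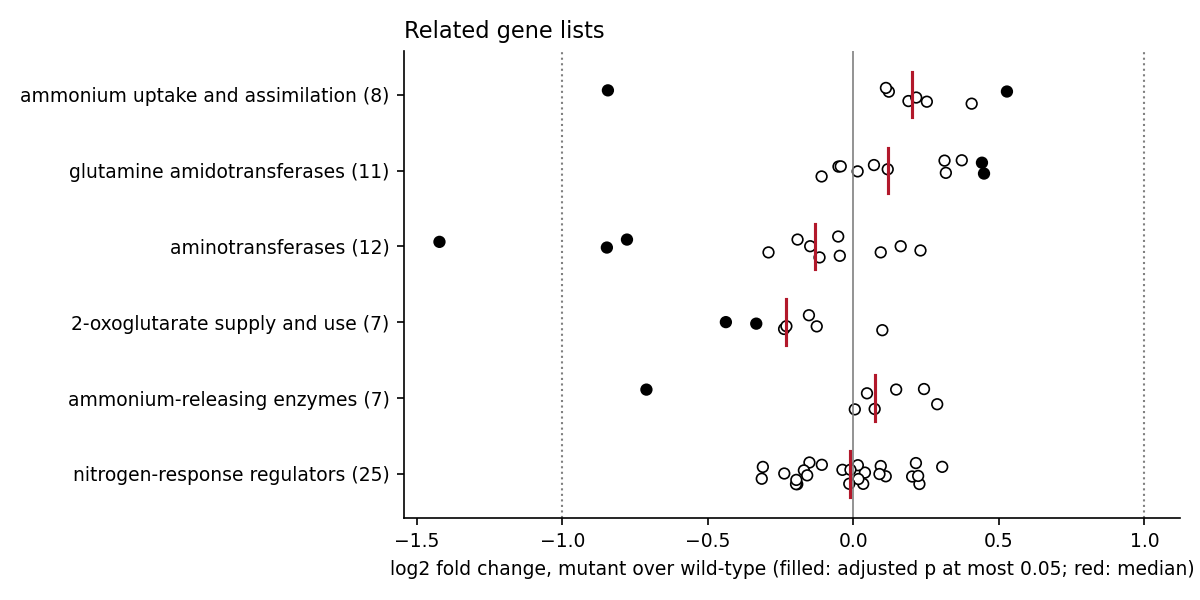
Log2 fold change in the mutant over wild-type (horizontal axis) of every tested gene of the 8 members and of the 5 related lists, 1 circle per gene, filled where the adjusted *P* by edgeR is at most 0.05, with the median in red. The medians run from −0.23 for the 2-oxoglutarate genes to 0.20 for the members, and the 25 regulators have no filled circle.

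The genes beside the members were examined because reads of overlapping genes may not be told apart. Of 22 genes of the count table that flanked or overlapped a member, 18 were tested, 4 were called lower, and 0 were called higher (1 at an unadjusted *P* under 0.05, 0 by DESeq2 or limma-voom, and 1 at the adjusted threshold without wild-type replicate 3). By edgeR, 418 of all 5947 genes were lower and 317 higher. The count of lower neighbours was 3 by DESeq2 and 4 by limma-voom, beside 6.46% and 6.89% of all genes. It was 5 without wild-type replicate 1 or 3, beside 11.6% and 15.2% of all genes. It was 3 without wild-type replicate 2, beside 3.89% of all genes. It was also 3 without mutant replicate 1, 2, or 3, beside 4.37%, 3.64%, and 3.42%. Without wild-type replicate 3, 14.3% of all genes were called higher. The noncoding RNA SPNCRNA.1195 starts on the other strand 388 bases upstream of *gdh1*. All 250 bases of the *gdh1* window printed above lie within the gene model of *tti1*, which runs on the same strand as *gdh1* and overlaps it by 58 bases. SPNCRNA.1195 had 264, 277, and 326 counts in the mutant libraries and 511, 762, and 674 in the wild-type libraries, with means of 276 ± 32.5 normalized counts in the mutant and 680 ± 86.1 in wild-type. The log2 fold change was −1.30 (SE 0.16, adjusted *P* = 0.000353 by edgeR), so that *gdh1* and its divergent neighbour were both lower in the mutant. *lmb1* overlaps *gdh1* by 94 bases on the other strand. The log2 fold changes were −0.09 for *lmb1* and 0.13 for *tti1*, and neither was called. SPAC2E1P3.01, which overlaps *amt3* by 29 bases, had −0.37 (adjusted *P* = 0.0999 by edgeR), and SPCC132.03, which overlaps *gdh2* by 19 bases, had −0.21 (adjusted *P* = 0.320).

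Upstream of *amt2* on the same strand, at a distance of 1210 bases, SPAC664.13 fell to 139 ± 14.3 normalized counts in the mutant, against 355 ± 18.2 in wild-type (log2 fold change −1.35, SE 0.16, adjusted *P* = 0.000238 by edgeR). It moved in the direction opposite to *amt2*. The gene *dad5*, for a subunit of the DASH complex at kinetochores, lies 253 bases upstream of *gaf1* on the same strand. It had 106, 110, and 101 counts in the mutant libraries and 200, 239, and 239 in the wild-type libraries (log2 fold change −1.24, SE 0.17, adjusted *P* = 0.000659 by edgeR), while *gaf1* was higher without a call. SPAC23H4.05c, 1266 bases upstream of *gln1*, had 38, 37, and 38 counts in the mutant libraries and 62, 79, and 47 in the wild-type libraries (log2 fold change −0.87, SE 0.22, adjusted *P* = 0.0242 by edgeR). SPNCRNA.758, which overlaps *amt2* on the other strand over 1551 bases, had 1 to 3 counts in the mutant libraries and 3 to 6 in the wild-type libraries, too few for a test. The exons of *amt2* span 2200 bases. Where the counting did not use strand, reads of *amt2* and of this RNA cannot be told apart in the overlap. The level of *amt2* per exon length, its place in the order, and its share of the transporters carry this limit. The other members carry it too, *amt3* as given above. For the rest, 10 noncoding RNAs without rows in the count table overlap them on the other strand. The longest overlaps were 2240 bases in *amt1*, 921 in *gdh1*, 4683 in *glt1*, 935 in *gln1*, 329 in *gdh2*, and 304 in *gaf1*. Without the use of strand, reads of these RNAs would enter the counts, levels, and changes of the members.

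The genes whose profile over the 6 libraries was most like that of the called members were found among 4729 protein-coding genes. Likeness was the root mean square difference of log2 normalized counts after each gene's mean was removed, so a smaller value means a closer profile. Nearest to *gdh1* were *isp6*, for a vacuolar serine protease, at 0.040, *gpa1*, for a G-protein alpha subunit, at 0.048, and the agmatinase gene SPAC11D3.09 at 0.068. Their log2 fold changes were −0.84 for *isp6*, −0.90 for *gpa1*, and −0.75 for SPAC11D3.09. Nearest to *amt2* were *kap123*, for a nuclear import receptor, at 0.031 with a log2 fold change of 0.50, *ggt1*, for gamma-glutamyltranspeptidase, at 0.031 with 0.56, and *ubp16*, for a ubiquitin hydrolase, at 0.033 with 0.56.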

How the data were processed

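Libraries of poly(A)+ RNA from 3 mutant and 3 wild-type cultures were assigned to strain and replicate by the labels. The deposited values are raw counts of each gene in each library, which the authors made from paired-end reads of a directional library kit with HISAT2 version 2.1.0, the ASM294v2 build, SAMtools, and HTSeq version 0.10.0 (submitters' processing notes and methods). The sources used here do not give the strand setting of the counting. A second deposited table holds the authors' DESeq2 comparison (mean normalized values, log2 fold changes, test statistics, *P* values) and was not used.

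The strains were compared with edgeR version 4.0.16 in R version 4.3.3 by its quasi-likelihood test (glmQLFTest), after filterByExpr and TMM scaling. *P* values were adjusted by Benjamini-Hochberg over all 5947 genes kept, of which 4937 are annotated as protein-coding. Standard errors were taken from the F statistic, as the size of the log2 fold change over √F. Levels are counts per kilobase of annotated exon per 1000000 of the TMM-scaled library size. Of 6988 features, 6836 were paired by systematic ID with RefSeq's ASM294v3 annotation, which gave names, exon lengths, neighbours, and promoter windows; no coordinates of the ASM294v2 build were used. Flanking genes are the nearest genes of the count table, because 10 annotated noncoding RNAs that overlap members are not among its rows. Identity between the transporter genes was computed from the coding sequences as nucleotides.

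Alternatives were RLE size factors, library totals, cyclic loess with limma-voom (limma version 3.58.1), no low-count filter, at least 10 counts in every library, limma-voom, a block for the replicate number, DESeq2 version 1.42.0, protein-coding genes alone, and leaving out each library. Their use on the related lists and neighbours was added after seeing the data. No 2 libraries of a strain agreed within sampling noise (chi-square values of 5.96 to 66.0 per degree of freedom). An exact two-sided permutation test of 3 against 3 libraries cannot go below 0.1, so none was run.

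The members and lists were chosen with earlier results of these data known. Genes named are the 8 members, the 4 or fewer genes of smallest *P* value in each list, flanking genes with an adjusted *P* of at most 0.05, the 3 protein-coding genes most like each called member in profile, and the altered genes. The 6 overlapping genes of the count table (SPNCRNA.859, SPNCRNA.758, SPAC2E1P3.01, SPCC132.03, *lmb1*, and *tti1*), none of them called, and *fep1* and *ams2* were named outside the rule, after values were seen. In the ammonium-releasing list, 1 gene (*fah2*, a fatty-acid amide hydrolase) was left out for its annotation.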

Additional observations from a re-analysis of the deposited data

How the results depend on the processing

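The calls of *gdh1* and *amt2* were kept in all 15 alternatives, and no member passed the 2-fold cutoffs in any of them. The number of members called higher was 2 with library totals and 2 with cyclic loess, and 1 to 4 when each library was left out. *gaf1* had a log2 fold change of 0.22 with library totals, 0.24 with cyclic loess, and 0.20 to 0.29 with 1 library left out. With 1 library left out, the log2 fold change was −0.0028 to 0.30 for *gdh2*, reversed without wild-type replicate 1, 0.18 to 0.26 for *glt1*, 0.10 to 0.33 for *amt1*, and 0.24 to 0.49 for *amt3*. The counts of the related lists moved more, and the cause was not tested. Library totals and cyclic loess each gave 5 amidotransferase genes higher, 1 aminotransferase gene higher and 5 lower, and 2 regulators higher and 2 lower. Of all genes, library totals gave 6.07% higher and 10.4% lower, and cyclic loess gave 9.25% higher and 10.7% lower. Protein-coding genes alone gave 1 regulator lower, beside 6.3% of the genes in that fit. RLE size factors and no low-count filter each gave 1 lower 2-oxoglutarate gene, beside 6.79% and 6.42% of all genes. With 1 library left out, amidotransferase genes called higher numbered 0 to 5, aminotransferase genes 0 to 1 higher and 3 to 5 lower, lower 2-oxoglutarate genes 0 to 2, ammonium-releasing genes 0 to 1 higher and 0 to 1 lower, regulators 0 to 5 higher and 0 to 3 lower, and neighbours 0 to 1 higher and 3 to 5 lower. Over all genes, calls made up 1.70% to 14.3% higher and 3.42% to 15.2% lower in those fits. No scaling moved the median of all genes by over 0.1 on the log2 scale. With the replicate number as a block, *gdh1* was at −0.84 and *amt2* at 0.53, and no member's call changed. In that fit 4 amidotransferase genes were called higher and 1 2-oxoglutarate gene lower, beside 5.1% and 5.95% of all genes. Same-numbered libraries had correlations of −0.04, 0.00888, and −0.0969 in their deviations from the strain means across 5049 genes. Differently numbered libraries had −0.129 to 0.145. No sign of pairing by number was seen, and the labels do not say whether the cultures were paired. For *amt3*, with 35 to 79 counts per library, the 95% interval of −0.07 to 0.89 does not exclude a change of either direction.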
